A study of Mus musculus with 24 samples.

Results

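The comparison described here set heart muscle cells in which all 3 myocardin-family coactivators were targeted (TKO) against control heart muscle cells (Ctrl). Its members were taken from the sample titles: the libraries titled TKO and those titled Ctrl, 6 of each, or 12 of the 24 libraries of the series, with all 23337 genes of the count table. All mice were injected with an adeno-associated virus (AAV) 1 day after birth, and cardiomyocytes were isolated by Langendorff perfusion and cell sorting when the mice were 4 weeks old. TKO mice were Mrtfa-/- (the label spells the gene Mrfta), carried floxed Mrtfb alleles (Mrtfb F/F) and the Cas9 nuclease in both copies of the Rosa locus, and were given a virus that delivers a Myocd guide RNA. DKO mice had that same genotype and received a Cre virus. MKO mice carried only Rosa Cas9/Cas9 and received the Myocd guide virus. Ctrl mice carried only Rosa Cas9/Cas9 and received the Cre virus. All 4 groups therefore share Cas9, viral injection, age and isolation. As a model, TKO joins a germline null (Mrtfa), a floxed gene (Mrtfb) and a guide-edited gene (Myocd). The labels name a guide virus for TKO and a Cre virus for Ctrl. Whether the guide virus also carries Cre, and which promoter drives Cre or Cas9, is a detail the sources used here do not give. Nor do the labels tie each library to an animal of its own, so the p-values measure the spread between libraries.

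Myocardin (Myocd) and the myocardin-related transcription factors Mrtfa and Mrtfb have no strong DNA binding of their own. They act by joining serum response factor (Srf), which sits on a short DNA element called the CArG box in the promoters of actin, myosin and other cytoskeletal genes. Mrtfa and Mrtfb bind free actin monomers in the cytoplasm and move to the nucleus when actin polymerizes, whereas myocardin is largely nuclear and restricted to heart and smooth muscle. Srf also pairs with ETS-domain factors downstream of ERK signalling, which compete with the myocardin family for the same surface of Srf.

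The TKO libraries held 10.2 to 17.2 M counts and the Ctrl libraries 8.02 to 11.5 M. The 10 most abundant genes took 14.4 to 16.8% of counts in TKO and 18.2 to 20.7% in Ctrl. By sex-linked transcripts, 3 of 6 TKO and 4 of 6 Ctrl libraries were male. Cardiomyocyte markers were abundant in every library: 15 ventricular markers summed to 111500 to 147600 CPM in TKO and 153300 to 189500 CPM in Ctrl, where CPM is the count scaled to a common library size. Ctrl 3 and Ctrl 2 stand apart from the other Ctrl libraries. Ctrl 3 had the highest atrial marker sum of its group (583 CPM, against 133 CPM in the lowest) and the lowest endothelial sum (233 CPM), and Ctrl 2 the highest endothelial sum (2505 CPM). The authors' deposited table of this comparison was made without Ctrl 3, as a refit showed, and results that rest on Ctrl 3 are given with and without it. In bulk libraries fewer cells of a type and less RNA per cell cannot be told apart.

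With all 3 coactivators targeted, TKO differed from Ctrl in the level of 1734 of 12281 tested genes, 14.1% of them, at an adjusted p under 0.05 in edgeR's quasi-likelihood test. In TKO 1000 genes were higher (8.14%) and 734 were lower (5.98%). Large changes were more often rises: 274 called genes were at least 2-fold higher in TKO (2.23%) and 118 at least 2-fold lower (0.961%). The excess of rises was smaller without Ctrl 3, with 274 higher and 168 lower. In the fit of 22 libraries without Ctrl 3 and DKO 1 the numbers were 298 and 237. In Ctrl the genes that fell had a median level of 44.8 CPM, against 19.9 CPM for those that rose and 21.3 CPM for all tested genes. A fall by itself makes the Ctrl level the higher of the 2 group levels, and a rise the lower. Whether abundance goes with the direction of change was therefore not tested. Together the genes called lower took 19.9% of all CPM in TKO and 27.9% in Ctrl, and those called higher 9.35% in TKO and 5.36% in Ctrl. The direction of these shifts follows from the calls. The 6 TKO libraries did not overlap the 6 Ctrl libraries for 864 of the called genes. Over all tested genes 4.76% lay wholly above Ctrl and 3.4% wholly below it. The median log2 ratio over all tested genes was -0.01. Leaving out each of the 12 libraries in turn gave 1403 to 1787 calls, 1522 without Ctrl 3. The authors' deposited table, made without Ctrl 3, lists 2177 genes under that threshold, 1152 higher and 1025 lower in TKO. At the threshold, Adam12 (adjusted p = 0.0496) was the last gene called and Trim35 (adjusted p = 0.05) the first not called. Log2 ratios below are TKO over Ctrl, given with their standard error.

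**Figure D1:**
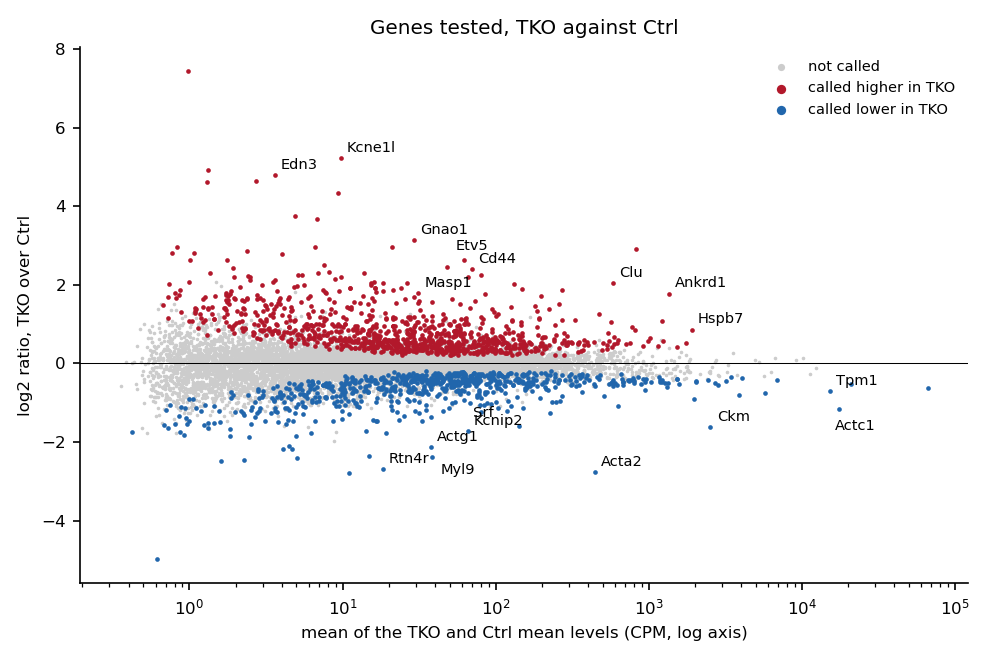
Log2 ratio of TKO over Ctrl for each of the 12281 tested genes (vertical axis) against the mean of its 2 group levels in CPM (horizontal log axis). Red points are the 1000 genes called higher and blue points the 734 called lower in TKO. Actc1, Tpm1 and Ckm, toward the right, lie below 0, and Kcne1l and Edn3 are among the highest points.

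Srf itself, the DNA-binding partner of all 3 coactivators, fell in TKO. Srf (mm10 chr17:46546839-46556162) spanned 38.3 to 50.9 CPM (median 42.4) in TKO and 69.4 to 96.6 CPM (median 81) in Ctrl. Every TKO library lay below every Ctrl library, and Srf fell by 0.93 ± 0.15 on the log2 scale (adjusted p = 6.97e-05). Of the targeted genes, Mrtfa, listed as Mkl1, stood at 1.33 to 2.66 CPM (median 2.35) in TKO and 4.81 to 11.3 CPM (median 7.55) in Ctrl, and Mrtfb, listed as Mkl2, at 27.5 to 42.5 CPM (median 37.4) in TKO and 44.8 to 55.9 CPM (median 48.8) in Ctrl. Neither overlapped between the groups, and they fell by 1.86 ± 0.21 (adjusted p = 8e-07) and 0.46 ± 0.11 (adjusted p = 0.0041). Since exons that are not floxed are counted too, the Mkl2 ratio is no measure of deletion. Myocd, whose guide-made insertions or deletions need not lower its RNA, spanned 175 to 323 CPM (median 230.1) in TKO and 153 to 234 CPM (median 182) in Ctrl, and the groups overlapped. Its log2 ratio was 0.40 ± 0.13 (adjusted p = 0.0437), and the call was lost when Ctrl 1, 3, 4, 5 or 6, or else TKO 1, 3, 4 or 5, was left out. Its adjusted p was then 0.0506 to 0.133, and 0.0646 without Ctrl 3. Of 13 tested genes on a list of the family, Srf and ETS-domain factors, 3 were called higher and 3 lower. Not every ETS factor on the list is a partner of Srf. The genes called higher were Myocd and the ETS factors Etv5 and Elk4. Etv5, described with the ERK feedback genes below, kept the call without each of the 12 libraries. Elk4 (0.41 ± 0.14, adjusted p = 0.046) lost it without Ctrl 1, 3, 4 or 5 and without TKO 1, 4, 5 or 6, with adjusted p-values of 0.063 to 0.123 and 0.0912 without Ctrl 3.

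The clearest falls were in genes of the actin cytoskeleton. Of 43 tested actin filament genes, 11 were called lower and 5 higher (37.2%, against 14.1% of all genes), with a median log2 ratio of -0.15. Acta2, smooth muscle alpha actin, which immature heart muscle also makes (chr19:34241091-34255336), spanned 37.2 to 183 CPM (median 115) in TKO and 585 to 961 CPM (median 789) in Ctrl. The highest TKO library lay far below the lowest Ctrl library, and Acta2 fell by 2.76 ± 0.27 (adjusted p = 1.38e-07). Actg1, cytoplasmic gamma actin (chr11:120345690-120348484), had 7.34 to 22.4 CPM (median 13.9) in TKO and 38.8 to 92.6 CPM (median 55.1) in Ctrl and fell by 2.14 ± 0.31 (adjusted p = 3.32e-05). Reads of the actin genes can match more than one of them, so the split among actins is uncertain. Myl9, a regulatory light chain of non-muscle and smooth muscle myosin (chr2:156775464-156781657), had 6.88 to 20.3 CPM (median 10.9) in TKO and 36.8 to 84.4 CPM (median 71.9) in Ctrl. It fell by 2.38 ± 0.33 (adjusted p = 1.9e-05), with no overlap. Cnn2, a calponin that binds actin filaments, fell by 1.77 ± 0.24 (adjusted p = 1.04e-05) and Pdlim7, a PDZ-LIM adaptor of actin bundles, by 1.47 ± 0.18 (adjusted p = 2.48e-06).

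Falls reached the most abundant cardiac actin and tropomyosin. Actc1, cardiac alpha actin (chr2:114047289-114052811), spanned 6965 to 15090.0 CPM (median 9909) in TKO and 21680.0 to 27651 CPM (median 23980.0) in Ctrl. No TKO library reached the lowest Ctrl library, and Actc1 fell by 1.17 ± 0.19 (adjusted p = 0.000131). Tpm1, the alpha tropomyosin that lies along thin filaments, had 9595 to 13781 CPM (median 11306) in TKO and 17130.0 to 20991 CPM (median 19177) in Ctrl and fell by 0.72 ± 0.12 (adjusted p = 0.000243). The actin turnover factors Wdr1 and Dstn fell by 0.61 ± 0.10 (adjusted p = 0.000159) and 0.54 ± 0.11 (adjusted p = 0.00107). Other members of the same list rose. Fhl1, a LIM-domain protein of the sarcomere, rose with a log2 ratio of 1.32 ± 0.15 (adjusted p = 7.62e-07), and Zyx, zyxin of adhesion sites, with 0.97 ± 0.15 (adjusted p = 8.59e-05). Fhl1 spanned 184 to 344 CPM (median 250.5) in TKO and 86.1 to 135 CPM (median 99.3) in Ctrl, and all TKO libraries lay above all Ctrl libraries. Acta2 and Myl9 are also made by smooth muscle cells. The summed level of 11 smooth muscle and pericyte markers other than Des was 417 to 684 CPM (median 450) in TKO and 479 to 828.8 CPM (median 651) in Ctrl, which overlap. Myh11, which marks smooth muscle, had 2.29 to 9.86 CPM (median 4.27) in TKO and 2.74 to 15.2 CPM (median 5.89) in Ctrl, which overlap. The part of such cells in the Acta2 and Myl9 results was not tested.

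The CArG box was looked for on both strands of the RefSeq promoters (build GRCm38.p6, which is mm10), from 250 bases before to 50 bases after each gene's start. Of the 734 genes called lower, 595 had a promoter in the table (81.1%), and 22 of these (3.7%) held an exact CArG box, against 488 of 27025 genes (1.81%) in the whole table. With 1 mismatch allowed in the A/T core of the box, the shares were 16.1% of the genes called lower and 11.3% of the whole table. Of the 1000 genes called higher, 767 had a promoter in the table (76.7%), and 7 of these (0.913%) held an exact box; with 1 mismatch allowed the share was 9.26%. Over all 12281 tested genes 79.5% had a promoter, of which 1.56% held an exact box and 10.8% a box with 1 mismatch allowed. Where fewer than 80% of a set have a promoter, its share is given as a value and is not compared. A match describes these letters and is not evidence of Srf binding. The windows below hold the exact boxes of Srf, of Fbxl22 and of the called genes of the actin filament list. Of these Fhl1 rose and the others fell. Each is printed 5′ to 3′ on the gene's strand with the box in capitals and 10 bases on either side.
Myl9, chr2:156775293-156775322, plus strand: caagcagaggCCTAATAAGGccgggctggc
Actg1, chr11:120348566-120348595, minus strand: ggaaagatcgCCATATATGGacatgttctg
Cnn2, chr10:79988534-79988563, plus strand: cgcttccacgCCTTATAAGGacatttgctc
Fbxl22, chr9:66514796-66514825, minus strand: aaaagaaatcCCTTTTAAGGaaaacttgta
Actc1, chr2:114052903-114052932, minus strand: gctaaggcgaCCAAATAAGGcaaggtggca
Srf, chr17:46556225-46556254, minus strand: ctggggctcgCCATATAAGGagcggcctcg
Srf, chr17:46556205-46556234, minus strand: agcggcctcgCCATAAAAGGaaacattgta
Fhl1, chrX:56779571-56779600, plus strand: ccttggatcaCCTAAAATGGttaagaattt

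The centres of these boxes lie 157 (Myl9), 86 (Actg1), 52 (Cnn2), 218 (Fbxl22), 43 (Actc1) and 98 (Fhl1) bases before the RefSeq start, and those of the pair in Srf 78 and 58 bases before it. Acta2, which fell the most of these genes, has no exact box in the window but a pair with 1 mismatch in the A/T core, shown in the same way.
Acta2, chr19:34255438-34255467, minus strand: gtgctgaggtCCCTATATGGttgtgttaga
Acta2, chr19:34255388-34255417, minus strand: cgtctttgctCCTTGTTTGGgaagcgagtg
Fbxl22, which encodes an F-box protein of the cardiac Z-disc, fell by 1.60 ± 0.21 (adjusted p = 7.37e-06), at 42.1 to 111 CPM (median 62) in TKO and 177 to 261 CPM (median 218) in Ctrl with no overlap. The 250 bases before the start of Srf and of Actc1 are printed whole, to show how close the Srf pair stand to each other and where the single exact box of Actc1 lies.
Srf, chr17:46556163-46556412, minus strand: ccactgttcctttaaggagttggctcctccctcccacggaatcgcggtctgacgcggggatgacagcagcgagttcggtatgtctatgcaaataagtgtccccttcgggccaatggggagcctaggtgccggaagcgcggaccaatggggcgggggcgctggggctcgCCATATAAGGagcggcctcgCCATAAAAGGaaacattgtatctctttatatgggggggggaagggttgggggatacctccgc
Actc1, chr2:114052876-114053125, minus strand: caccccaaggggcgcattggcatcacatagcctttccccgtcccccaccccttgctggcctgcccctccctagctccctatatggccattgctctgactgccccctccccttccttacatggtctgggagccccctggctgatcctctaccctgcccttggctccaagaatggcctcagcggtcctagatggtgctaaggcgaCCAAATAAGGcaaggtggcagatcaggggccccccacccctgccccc

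The gene with the smallest adjusted p in the comparison was a rise. Gnao1, the alpha subunit of the inhibitory G protein Go (chr8:93810838-93969388), spanned 38.3 to 72.8 CPM (median 53.6) in TKO and 5.08 to 7.34 CPM (median 5.68) in Ctrl. Every TKO library exceeded every Ctrl library, and the log2 ratio was 3.13 ± 0.17 (adjusted p = 1.26e-11). Cd44, a hyaluronan receptor that also binds matrix ligands (chr2:102811142-102901665), had 78.6 to 168 CPM (median 113) in TKO and 17.5 to 24.9 CPM (median 24) in Ctrl, again without overlap, and rose with a log2 ratio of 2.40 ± 0.17 (adjusted p = 5.05e-10). Masp1, a serine protease of the lectin complement pathway (chr16:23451785-23520590), had 42.5 to 57.1 CPM (median 47.1) in TKO and 11.3 to 16.9 CPM (median 13.8) in Ctrl. Its spread within TKO was small, and it rose with a log2 ratio of 1.80 ± 0.12 (adjusted p = 5.05e-10). Hspa1l, an Hsp70 family member, rose as well, at 21.6 to 28.5 CPM (median 24.4) in TKO and 5.3 to 7.46 CPM (median 5.83) in Ctrl. Prss23, a secreted serine protease, rose with 1.85 ± 0.15, Slc25a23, a calcium-regulated carrier of the mitochondrial inner membrane, with 1.21 ± 0.10, and Mfge8, a milk fat globule protein that bridges apoptotic cells to phagocytes, with 1.10 ± 0.09. Their adjusted p-values lay between 8.44e-10 (Hspa1l) and 8.47e-09 (Mfge8), and none overlapped between the groups. Slc25a23 has an exact CArG box in its promoter window as well and rose.

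The largest log2 ratios belonged to genes that were near the limit of detection in Ctrl. Kcne1l (now Kcne5), an accessory subunit of potassium channels on the X chromosome, spanned 2.52 to 32.1 CPM (median 20.1) in TKO and 0.123 to 1.12 CPM (median 0.439) in Ctrl. TKO 1 was the lowest of its group and still above all Ctrl libraries, and the log2 ratio was 5.23 ± 0.50 (adjusted p = 1.02e-07). Lrp8, a receptor for apolipoprotein E and reelin, had 2.44 to 35 CPM (median 14.8) in TKO and 0.244 to 2.36 CPM (median 0.487) in Ctrl, with a log2 ratio of 4.33 ± 0.57 (adjusted p = 9.61e-06). Krt80, an epithelial type II keratin, had 3.66 to 32.4 CPM (median 9.11) in TKO and 0.462 to 1.87 CPM (median 0.613) in Ctrl, with 3.68 ± 0.48 (adjusted p = 8.32e-06). All 3 genes were separated between the groups, and each varied over more than 8-fold among the TKO libraries. Nlrc3, an NLR protein that restrains innate signalling, rose with a log2 ratio of 2.97 ± 0.39, Cp, the copper ferroxidase ceruloplasmin, with 2.45 ± 0.23, and Gipr, the receptor of the incretin GIP, with 2.33 ± 0.27. Cyp4b1, a cytochrome P450, rose with 2.26 ± 0.23, and Mmp23, a membrane metalloprotease, with 2.50 ± 0.25. Their adjusted p-values lay between 8.25e-08 (Cp) and 8.35e-06 (Nlrc3).

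**Figure D2:**
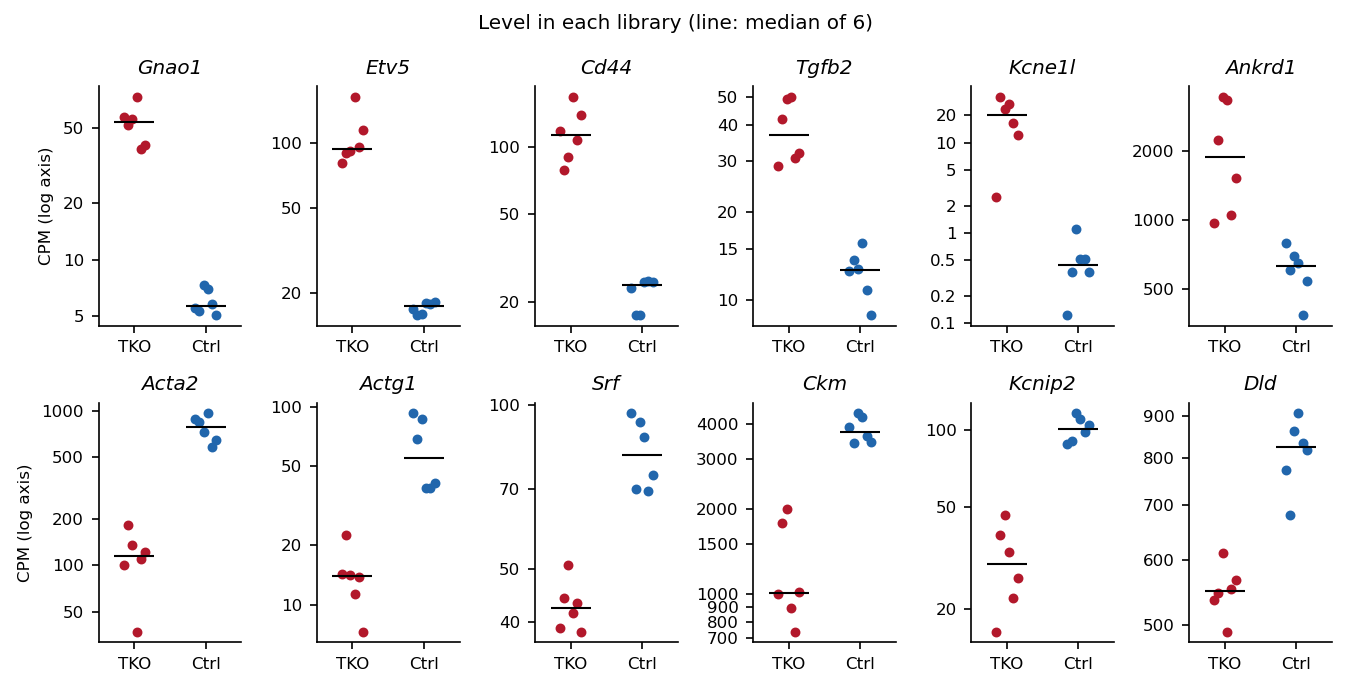
Level of 12 genes in each of the 6 TKO (left, red) and 6 Ctrl libraries (right, blue) in CPM on log axes, with the median of each group as a line. For all 12 genes the TKO libraries lie wholly above (Gnao1, Etv5, Cd44, Tgfb2, Kcne1l, Ankrd1) or wholly below (Acta2, Actg1, Srf, Ckm, Kcnip2, Dld) the Ctrl libraries.

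Genes of the sarcomere changed in both directions. Of 42 tested, 8 were called higher and 7 lower (35.7%), and the median log2 ratio was 0.08. Hspb7, a small heat shock protein that guards cardiac filament proteins, had 1953 to 2879.5 CPM (median 2410.1) in TKO and 1158 to 1643 CPM (median 1308) in Ctrl and rose with a log2 ratio of 0.86 ± 0.17 (adjusted p = 0.00128). Mybpc2, the fast skeletal form of myosin binding protein C, rose with 1.39 ± 0.22 (adjusted p = 9.91e-05). The groups overlapped by a little: the lowest TKO library had 87 CPM, and Ctrl 3, the highest Ctrl library, 87.2 CPM. Tnni1, the slow isoform of troponin I, and Myh7, the slow myosin heavy chain, were both called higher. Each call was lost when certain single libraries were left out. Tnni1 had 73.1 to 601 CPM (median 158) in TKO and 27.3 to 72.2 CPM (median 53) in Ctrl, without overlap. Its log2 ratio of 2.03 ± 0.62 (adjusted p = 0.0279) became 1.36 without TKO 1 (adjusted p = 0.132). It also missed the threshold without Ctrl 3 (adjusted p = 0.0557), Ctrl 4 (0.0628) or Ctrl 5 (0.0507). Myh7 had 227 to 2059 CPM (median 436) in TKO and 184 to 379 CPM (median 279.5) in Ctrl, and its log2 ratio of 1.26 ± 0.37 (adjusted p = 0.0219) became 0.47 without TKO 4 (adjusted p = 0.173). It also missed the threshold without Ctrl 4 (0.0517) or Ctrl 5 (0.0541). Tnnc1, cardiac troponin C, fell by 0.90 ± 0.20 (adjusted p = 0.00262), Ttn, the giant elastic filament titin, by 0.80 ± 0.22 (adjusted p = 0.0151), and Trim55, a titin-associated ubiquitin ligase, by 0.67 ± 0.09 (adjusted p = 9.07e-06). The Trim55 libraries did not overlap, at 72.2 to 93.2 CPM (median 85.6) in TKO and 120.2 to 142 CPM (median 135) in Ctrl. Mylk4, a kinase related to myosin light chain kinases, fell by 1.22 ± 0.32 (adjusted p = 0.00955).

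Filament and adhesion genes outside the thin filament were called higher more often than lower. Of 31 genes of intermediate filaments and microtubules, 7 were called higher and 1 lower (25.8%). Besides Krt80, Synm, the intermediate filament protein synemin, rose with a log2 ratio of 1.85 ± 0.26 (adjusted p = 2.19e-05), at 4.18 to 7.64 CPM (median 6.09) in TKO and 0.995 to 2.68 CPM (median 1.48) in Ctrl without overlap. Krt8, a simple epithelial keratin, rose with 1.85 ± 0.42 (adjusted p = 0.00348), Tuba1a, an alpha tubulin, with 1.16 ± 0.25 (adjusted p = 0.00193), and Lmna, which encodes lamins A and C, with 0.49 ± 0.10 (adjusted p = 0.00119). Of 44 genes of the costamere, integrins and dystrophin complex, 11 were higher and 3 lower (31.8%). Sorbs2 and Sorbs3, adaptors at Z-discs and focal adhesions, rose with log2 ratios of 0.92 ± 0.14 (adjusted p = 3.69e-05) and 1.53 ± 0.37 (adjusted p = 0.00609). Sorbs2 was separated between the groups, with 867 to 1150.4 CPM (median 1062) in TKO and 459 to 608 CPM (median 525) in Ctrl, while Sorbs3 overlapped through Ctrl 2 (40.2 CPM, against 5.47 to 14.1 CPM in the other Ctrl libraries). Itgb1bp2 (melusin), a muscle partner of beta 1 integrin, fell by 0.98 ± 0.17 (adjusted p = 0.000287), at 129 to 222 CPM (median 151) in TKO and 280.4 to 395 CPM (median 326) in Ctrl. Of 26 intercalated disc genes 5 rose and none was called lower (19.2%, against 14.1% of all genes called and 8.14% called higher). Lmo7, a LIM-domain protein of adherens junctions, was the one with the smallest adjusted p, with 0.57 ± 0.12 (adjusted p = 0.00193).

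The fetal and stress programme had the highest share of called members of the lists examined. Of its 29 tested genes 13 were higher and 4 lower (58.6%), with a median log2 ratio of 0.43. Ankrd1, a stretch-responsive nuclear and sarcomeric protein, had 972 to 3454 CPM (median 1879) in TKO and 384 to 796 CPM (median 626) in Ctrl, without overlap, and rose with a log2 ratio of 1.78 ± 0.25 (adjusted p = 1.97e-05). Rcan1, a calcineurin target and inhibitor, had 336 to 594 CPM (median 418) in TKO and 176 to 272 CPM (median 195) in Ctrl and rose with 1.09 ± 0.13 (adjusted p = 1.7e-06). Nppa, the atrial natriuretic peptide gene (chr4:148000746-148002067), was the most variable of them. It spanned 109 to 3924 CPM (median 929) in TKO and 50.7 to 403 CPM (median 195) in Ctrl, so the groups overlapped, and its log2 ratio was 2.92 ± 0.78 (adjusted p = 0.0118). TKO 4 was the highest and TKO 5 the lowest TKO library, and Ctrl 3 the highest Ctrl library. Nppa is also an atrial marker: the other 9 atrial markers summed to 61.5 to 103 CPM (median 88.9) in TKO and 67.8 to 180 CPM (median 91.3) in Ctrl, which overlap.

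Secreted ligands that rose included members of the TGF-beta superfamily and an endothelin. Of 43 tested ligands 7 were higher and 2 lower (20.9%). Edn3, endothelin 3, had 0.946 to 13.9 CPM (median 5.87) in TKO and 0 to 0.609 CPM (median 0.278) in Ctrl and a log2 ratio of 4.79 ± 0.69 (adjusted p = 2.93e-05), which at such low Ctrl counts depends on the fit. Tgfb2 had 28.9 to 49.9 CPM (median 37) in TKO and 8.87 to 15.6 CPM (median 12.7) in Ctrl, and rose with 1.65 ± 0.15 (adjusted p = 3.31e-08). Every TKO library of both genes lay above every Ctrl library. Inhba, the beta A subunit of activin and inhibin, rose with 2.78 ± 0.32 (adjusted p = 1.34e-06), at 5.49 to 10.6 CPM (median 6.61) in TKO and 0.622 to 1.29 CPM (median 1.04) in Ctrl. Tgfb3 rose with 1.21 ± 0.20 (adjusted p = 0.000175), also without overlap. Gdf15, a stress-induced hormone, rose with 2.13 ± 0.50 (adjusted p = 0.00441), with TKO 3 at 11.1 CPM and the other TKO libraries at 0.867 to 4.6 CPM. Apln, the peptide ligand apelin, fell by 1.45 ± 0.31 (adjusted p = 0.0021), with Ctrl 2 at 48.4 CPM against 16.6 to 20.4 CPM in the other Ctrl libraries and 5.89 to 13.1 CPM (median 7.91) in TKO. Apelin is made by endothelial cells too, and Ctrl 2 also had the highest endothelial marker sum; the part of such cells was not tested.

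Genes of the receptor tyrosine kinase and ERK feedback list changed in both directions. Of 40 tested genes of that list 6 were higher and 2 lower (20%, against 14.1% of all genes). The median log2 ratio was -0.004, with 20 members above 0 and 20 below it. Etv5, an ETS transcription factor induced by FGF signalling (chr16:22381313-22439570), had 80.8 to 165 CPM (median 94.2) in TKO and 15.8 to 18.3 CPM (median 17.4) in Ctrl. The Ctrl libraries were tightly grouped and far below all TKO libraries, and the log2 ratio was 2.63 ± 0.16 (adjusted p = 7.38e-11). Spry4, a Sprouty inhibitor of this pathway, rose with 1.54 ± 0.25 (adjusted p = 0.000114). It spanned 21.8 to 48.9 CPM (median 33.4) in TKO and 6.34 to 22.3 CPM (median 10.1) in Ctrl, where Ctrl 2 alone reached the lowest TKO library. Fgfr1, an FGF receptor, rose with 0.96 ± 0.16 (adjusted p = 0.000188), at 22.5 to 51.2 CPM (median 24.7) in TKO and 13.5 to 15.4 CPM (median 15.3) in Ctrl, and TKO 4 stood well above the other 5. Dusp8, a phosphatase of MAP kinases, rose with 0.74 ± 0.17 (adjusted p = 0.00361), with overlap. Epha4, an ephrin receptor, fell by 1.28 ± 0.21 (adjusted p = 0.000164), at 3.47 to 9.15 CPM (median 6.28) in TKO and 11.1 to 19.3 CPM (median 16.2) in Ctrl.

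G protein signalling genes changed in both directions, and more of them rose. Of 51 tested genes 9 were higher and 5 lower (27.5%); the number lower was 3 without Ctrl 1, Ctrl 4, Ctrl 6 or TKO 6. Besides Gnao1, Adora1, the Gi-coupled adenosine A1 receptor, had 128 to 164 CPM (median 137) in TKO and 47.5 to 64.4 CPM (median 56.9) in Ctrl, and rose with a log2 ratio of 1.30 ± 0.13 (adjusted p = 1.3e-07). Grk5, a kinase that desensitizes activated receptors, had 21.8 to 29.7 CPM (median 26.2) in TKO and 4.58 to 9.3 CPM (median 6.42) in Ctrl, and rose with 1.92 ± 0.16 (adjusted p = 1.59e-08). Neither gene overlapped between the groups. The main cardiac adenylyl cyclases moved in opposite directions. Adcy5 fell by 1.25 ± 0.14 (adjusted p = 7.23e-07), at 37.5 to 62.9 CPM (median 44) in TKO and 87.2 to 140.2 CPM (median 104) in Ctrl, whereas Adcy6 rose with 0.55 ± 0.09 (adjusted p = 0.000208), at 174 to 217 CPM (median 200.4) in TKO and 117 to 145 CPM (median 139) in Ctrl. Rgs2, which shortens Gq signals, rose with 0.92 ± 0.24 (adjusted p = 0.0099), with overlap. In the calcineurin, CaMK and hypertrophic signalling list 7 of 40 genes were higher and 5 lower (30%), and the number lower was 2 without Ctrl 1 or TKO 3 and 3 without Ctrl 5 or TKO 4. Prkcd, protein kinase C delta, rose with 1.44 ± 0.22 (adjusted p = 5e-05), without overlap.

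More potassium channel genes of repolarization fell than rose. Of 28 tested 6 were lower and 3 higher (32.1%). Kcnip2, the subunit KChIP2 that sets the transient outward current (chr19:45793670-45815803), had 16.4 to 46.6 CPM (median 29.9) in TKO and 87.7 to 116 CPM (median 101) in Ctrl. No TKO library reached the Ctrl range, and Kcnip2 fell by 1.72 ± 0.17 (adjusted p = 1.44e-07). Its pore partner Kcnd2 fell by 1.21 ± 0.25 (adjusted p = 0.00131), at 8.84 to 25.4 CPM (median 20.1) in TKO and 34.6 to 50.4 CPM (median 40.2) in Ctrl. Kcne1, the accessory subunit of the slow delayed rectifier, fell by 0.95 ± 0.14 (adjusted p = 3.64e-05), while Kcne1l of the same family rose as given above. The pacemaker channel genes parted: Hcn2 fell by 0.99 ± 0.15 (adjusted p = 4.05e-05), at 24.6 to 45.7 CPM (median 39.1) in TKO and 63.2 to 83.3 CPM (median 70.7) in Ctrl, and Hcn4 rose with 1.26 ± 0.32 (adjusted p = 0.00854), at 6.56 to 19.6 CPM (median 10.9) in TKO and 2.68 to 6.41 CPM (median 5.29) in Ctrl. Both were separated between the groups. Of 30 genes of sodium, pacemaker and other ion transport, 3 were higher and 2 lower (16.7%). Of 32 calcium cycling genes 6 were called lower and 3 higher (28.1%), but the number lower was 2 without TKO 1 and 3 without TKO 2 or Ctrl 3, 4, 5 or 6. Casq1, the skeletal calsequestrin, rose with 1.58 ± 0.40 (adjusted p = 0.00844), at 32 to 211 CPM (median 96.6) in TKO and 25 to 67.2 CPM (median 29.6) in Ctrl with overlap. Of 22 T-tubule and dyad genes 3 were lower and none was called higher (13.6%, against 14.1% of all genes called and 5.98% called lower). Their median log2 ratio was -0.20, with 16 genes below 0 and 6 above it.

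Genes of the TCA cycle, ketone use and branched-chain amino acid breakdown made up the list with the highest share of falls, and the falls were small. Of 48 tested genes 24 were called lower and none was called higher (50%, against 5.98% of all genes lower), and the median log2 ratio was -0.35. The number lower ranged from 13 to 29 as each library was left out, with 13 without Ctrl 4, 16 without Ctrl 3 and 29 without Ctrl 2. Dld, the dihydrolipoyl dehydrogenase shared by the 2-oxoacid dehydrogenase complexes, had 491 to 612 CPM (median 551) in TKO and 681 to 906 CPM (median 825) in Ctrl. The groups did not overlap, and Dld fell by 0.56 ± 0.08 (adjusted p = 1.81e-05). Sdha, the flavoprotein of succinate dehydrogenase, had 2036 to 2545 CPM (median 2331) in TKO and 2670.3 to 3849 CPM (median 3394) in Ctrl, and fell by 0.54 ± 0.10 (adjusted p = 0.000374), also without overlap. Cs, citrate synthase, fell by 0.47 ± 0.10 (adjusted p = 0.00274), at 1469.8 to 1938 CPM (median 1772) in TKO and 1887 to 2574 CPM (median 2471) in Ctrl with a slight overlap. Of 53 nuclear genes of the respiratory chain and ATP synthase 13 were lower and none was called higher (24.5%, median -0.29). That number was 6 to 8 without Ctrl 3 (8), Ctrl 4 (6), TKO 1 (8), TKO 4 (7) or TKO 5 (8), and 27 in the fit of 22 libraries without Ctrl 3 and DKO 1. Uqcrfs1, the Rieske protein of complex III, fell by 0.61 ± 0.17 (adjusted p = 0.0148), at 832 to 1237 CPM (median 1033) in TKO and 1411 to 1874 CPM (median 1555) in Ctrl. Genes of mitochondrial DNA were not analysed here.

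Other genes of energy supply fell as well. Ckm, the muscle creatine kinase that links ATP to the myofibril (chr7:19411094-19421583), had 738 to 1997 CPM (median 1011) in TKO and 3416 to 4351 CPM (median 3752) in Ctrl. The TKO libraries lay wholly below, and Ckm fell by 1.62 ± 0.20 (adjusted p = 4.76e-06). Ckb, the brain-type creatine kinase, fell by 1.08 ± 0.17 (adjusted p = 6.97e-05), at 58.5 to 115 CPM (median 74.4) in TKO and 139 to 236 CPM (median 165) in Ctrl; of 23 creatine and adenylate genes 3 were lower and none was called higher (13%). Of 48 genes of mitochondrial biogenesis, import and dynamics 10 were lower and 1 higher (22.9%), with 6 lower without Ctrl 3 or Ctrl 4. Ppargc1b, a coactivator of mitochondrial gene expression, fell by 0.85 ± 0.12 (adjusted p = 2.79e-05), at 64 to 129 CPM (median 97.2) in TKO and 158 to 199 CPM (median 176) in Ctrl. Of 62 fatty acid genes 10 were lower and 3 higher (21%). Ces1d, a carboxylesterase with near-identical neighbours whose reads may be split, fell by 2.37 ± 0.39 (adjusted p = 0.00014), and Scd2, a stearoyl-CoA desaturase, by 1.02 ± 0.18 (adjusted p = 0.000364). Monocarboxylate carriers moved apart: Slc16a7 (MCT2) fell by 2.11 ± 0.23 (adjusted p = 7.23e-07), at 1.14 to 2.33 CPM (median 1.71) in TKO and 5.18 to 8.89 CPM (median 7.15) in Ctrl. Slc16a3 (MCT4) rose with 1.40 ± 0.26 (adjusted p = 0.000529), at 4.53 to 6.92 CPM (median 6.33) in TKO and 1.83 to 3.17 CPM (median 2.14) in Ctrl. Slc2a4, the insulin-responsive glucose carrier GLUT4, fell by 0.72 ± 0.14 (adjusted p = 0.00071). Of 45 genes of glucose, glycogen and lactate 5 were lower and 3 higher (17.8%).

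Stress and turnover genes that changed were mostly higher. Over all tested genes 14.1% were called, 8.14% higher and 5.98% lower. In the p53 and cell death list 8 of 38 genes were higher and none was called lower (21.1%). Eda2r, a p53-induced death receptor, rose with a log2 ratio of 1.36 ± 0.26 (adjusted p = 0.000872), at 13 to 38.4 CPM (median 21) in TKO and 5.19 to 11.3 CPM (median 8.7) in Ctrl without overlap. Tnfrsf12a, the TWEAK receptor, rose with 1.27 ± 0.21 (adjusted p = 0.000133), and Cdkn1a, the cell cycle inhibitor p21, with 1.19 ± 0.28 (adjusted p = 0.00432). Of 45 oxidative stress and iron genes 7 were higher and 2 lower (20%). Gpx3, a secreted glutathione peroxidase, rose with 1.71 ± 0.34 (adjusted p = 0.00123), and with 1.11 without TKO 4 (adjusted p = 0.00321), which had 819 CPM against 104 to 358 CPM in the other TKO libraries and 73.7 to 118 CPM (median 84.4) in Ctrl. Hmox1, heme oxygenase 1, rose with 1.47 ± 0.32 (adjusted p = 0.00239), and Gclm, a subunit of the enzyme that starts glutathione synthesis, with 0.82 ± 0.13 (adjusted p = 0.000133), both without overlap. Of 53 genes of the proteasome, autophagy and lysosome 9 were higher and 5 lower (26.4%). Gabarapl1, an Atg8 protein of the autophagosome, had 56.4 to 76.1 CPM (median 62.8) in TKO and 37.8 to 43 CPM (median 40.3) in Ctrl and rose with 0.67 ± 0.09 (adjusted p = 1.26e-05). Sqstm1, the cargo receptor p62, rose with 0.68 ± 0.15 (adjusted p = 0.00366), and Fbxo32, the muscle ubiquitin ligase atrogin-1, with 1.13 ± 0.17 (adjusted p = 4.73e-05). Asb14, a muscle substrate receptor of cullin ligases, fell by 1.05 ± 0.14 (adjusted p = 9.9e-06), at 31.9 to 66.2 CPM (median 57.7) in TKO and 109 to 119.9 CPM (median 112) in Ctrl. In the unfolded protein and integrated stress list 6 of 55 genes were higher and 3 lower (16.4%), a share near that of all genes. Of its members Asns, asparagine synthetase, fell by 1.46 ± 0.31 (adjusted p = 0.00178) while Psat1, of serine synthesis, rose with 0.86 ± 0.21 (adjusted p = 0.00636).

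Shares of called genes near or below that of all genes were found in several lists. Of 67 cardiac transcription factors 6 were higher and 4 lower (14.9%). Among them Rxrg, a retinoid X receptor, fell by 1.07 ± 0.15 (adjusted p = 3.06e-05), at 36.6 to 65.6 CPM (median 52.5) in TKO and 85.7 to 123 CPM (median 105) in Ctrl, and Hif1a, the hypoxia-inducible factor, rose with 0.70 ± 0.16 (adjusted p = 0.00308), at 274 to 464 CPM (median 346) in TKO and 201 to 254 CPM (median 223) in Ctrl. Neither overlapped between the groups. Of 57 matrix genes 5 were higher and 4 lower (15.8%), with 3 higher without Ctrl 3, Ctrl 4, TKO 2, TKO 4 or TKO 5. Timp2, an inhibitor of matrix metalloproteases, fell by 1.15 ± 0.13 (adjusted p = 8.03e-07), at 51.4 to 78.9 CPM (median 62) in TKO and 114 to 166 CPM (median 147) in Ctrl. Of 45 genes of RNA binding in muscle 3 were higher and 2 lower (11.1%), of 41 interferon and antigen presentation genes 2 were higher (4.88%), and of 43 cell cycle genes 1 was lower (2.33%). Of the cell cycle genes 37 had a log2 ratio below 0 and 6 above it, with a median of -0.30. Rbfox1, a splicing regulator, fell by 0.95 ± 0.16 (adjusted p = 0.000156). The gene lists share members, and they were chosen with earlier results of these data known, so their counts are descriptions.

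**Figure D3:**
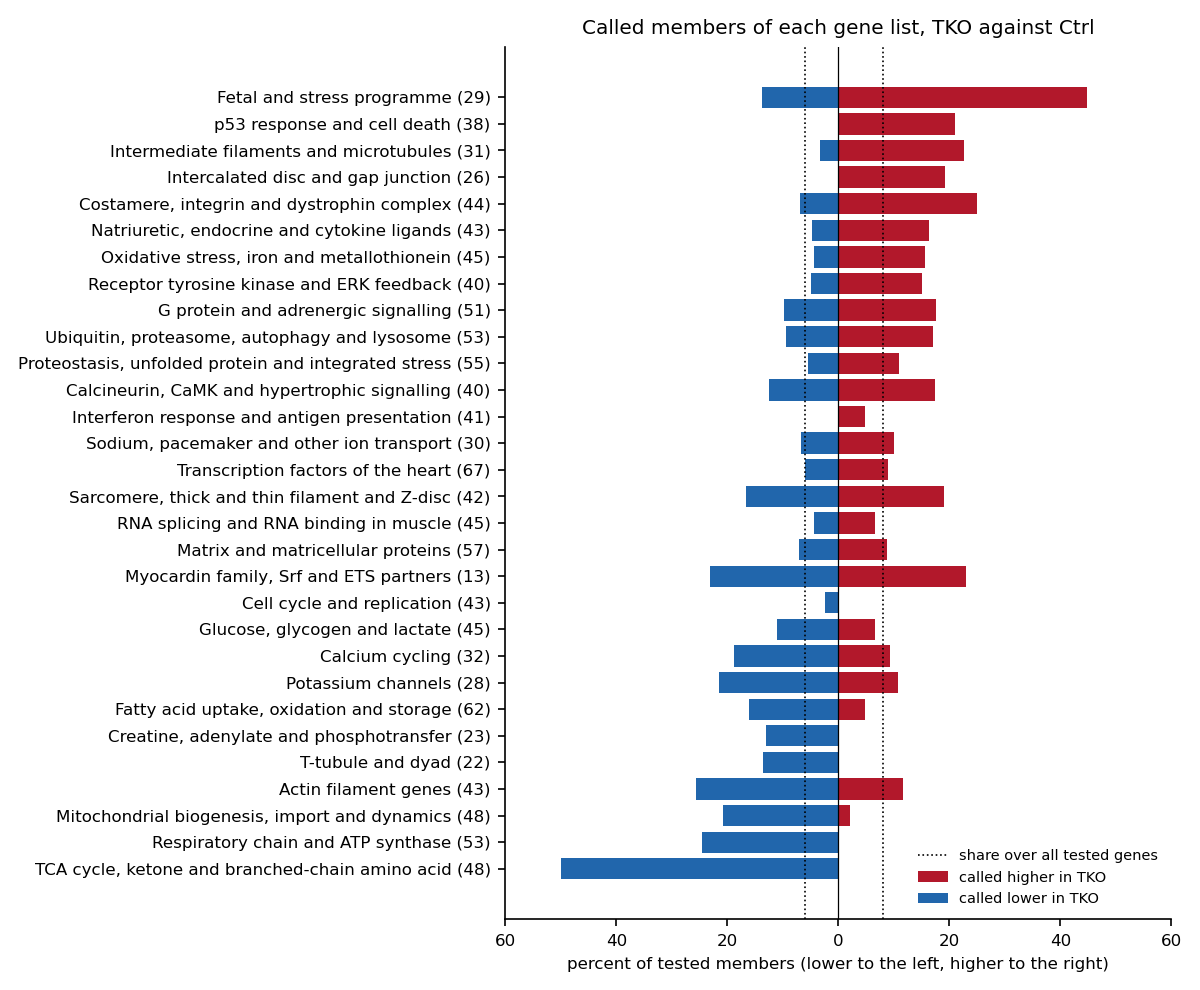
Share of the tested members of each gene list called higher (red, to the right) or lower (blue, to the left) in TKO against Ctrl, with the number tested in brackets; dotted lines mark the shares over all tested genes, 8.14% higher and 5.98% lower. The fetal and stress list extends farthest to the right and the TCA cycle list farthest to the left.

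Among the marker lists, calls were mostly in those of ventricular cells. Of 15 ventricular markers 5 fell (Actc1, Tnnc1, Ttn, Myl3 and Myh6) and none was called higher (33.3%, against 5.98% of all genes lower). Of 15 endothelial markers none was called, with sums of 241 to 969 CPM (median 592) in TKO and 233 to 2505 CPM (median 769) in Ctrl. Fibroblast markers summed to 326 to 426 CPM (median 382) in TKO and 174 to 772 CPM (median 385) in Ctrl, and leukocyte markers to 10.3 to 16.7 CPM in TKO and 5.22 to 17.3 CPM in Ctrl. Cd3e, which defines T cells, was at 0 in every TKO library. The alpha globin genes Hba-a1 and Hba-a2 were at 0 in all 12 libraries. Since the handling of multiply mapped reads is not given, these zeros do not show that red cell RNA was absent. The 3 erythroid markers in the count table, which include Alas2, summed to 0.25 to 0.697 CPM in TKO and 0 to 2.96 CPM in Ctrl.

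The other groups place these changes. By the labels, TKO differs from DKO by the guide virus against Myocd in place of the Cre virus, and from MKO by the Mrtfa and Mrtfb alleles. The groups also differ in sex: by sex-linked transcripts 3 TKO, 1 DKO and 4 MKO libraries were male, and 3, 5 and 2 female. With a sex term in the fit, TKO against DKO gave 1233 calls, against 784 without it. In TKO against DKO 784 genes were called (6.38%), 511 higher (4.16%) and 273 lower (2.22%); without TKO 4 there were 495, with 128 lower, and the number lower was 176 without TKO 1 and 168 without TKO 6. In TKO against MKO 1639 were called (13.3%), 796 higher (6.48%) and 843 lower (6.86%). Markers of other cells were among the falls in TKO against MKO. Of 15 endothelial markers 6 were lower and 0 higher, with a median log2 ratio of -1.06. Of 11 smooth muscle and pericyte markers 6 were lower and 1 higher, with a median of -1.18. The part of such cells in the 843 falls was not tested. DKO against Ctrl gave 78 calls (0.635%), and MKO against Ctrl gave 0 in edgeR, with 762 genes at an unadjusted p under 0.05; DESeq2 called 1 gene in MKO against Ctrl and voom 3. DKO 1 had the fewest counts of all libraries, 5.83 M against 8.5 to 12.2 M in the other DKO libraries. Without it DKO against Ctrl gave 124 calls, 43 higher and 81 lower, and TKO against DKO 1100, 748 higher and 352 lower. Both comparisons with TKO use the same 6 TKO libraries as the comparison with Ctrl, so their values are set side by side.

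Of the actin genes that fell, 4 were set beside DKO and MKO. Acta2 averaged 114 ± 47.7 CPM in TKO, 173 ± 55.5 CPM in DKO, 541 ± 140.5 CPM in MKO and 777 ± 146 CPM in Ctrl, and its log2 ratio of TKO over DKO was -0.59 ± 0.26 (adjusted p = 0.163). Actg1 averaged 13.9 ± 4.95 CPM in TKO, 19.9 ± 5.94 CPM in DKO, 53.5 ± 25.4 CPM in MKO and 61.2 ± 24.8 CPM in Ctrl, with -0.53 ± 0.31 over DKO (adjusted p = 0.3). For Wdr1 the ratio over DKO was 0.03 ± 0.10 (adjusted p = 0.892) and for Myl9 -0.61 ± 0.33 (adjusted p = 0.261). None of these 4 differences from DKO passed the threshold, which does not show that the levels were equal. Over the actin filament list, 8 of 43 genes were called lower in DKO against Ctrl and none was called higher (18.6%, against 0.334% of all genes lower and 0.301% higher). In TKO against DKO 6 were higher and 1 lower (16.3%, against 6.38% of all genes). Srf stood between: it averaged 42.8 ± 4.57 CPM in TKO, 65.5 ± 20 CPM in DKO, 87.6 ± 14 CPM in MKO and 81.9 ± 12 CPM in Ctrl, and relative to DKO it fell by 0.61 ± 0.14 (adjusted p = 0.0115).

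Gnao1, Etv5 and Masp1, which rose, had their highest mean in TKO. Gnao1 averaged 52.6 ± 12.6 CPM in TKO, 14.2 ± 3.47 CPM in DKO, 7.56 ± 0.943 CPM in MKO and 6.01 ± 0.916 CPM in Ctrl, with log2 ratios of 1.89 ± 0.16 over DKO (adjusted p = 7.44e-08) and 2.80 ± 0.17 over MKO (adjusted p = 7.68e-11). Etv5 averaged 107 ± 30.6 CPM in TKO, 30.5 ± 4.97 CPM in DKO, 22.4 ± 4.64 CPM in MKO and 17.2 ± 1.06 CPM in Ctrl, with 1.81 ± 0.16 over DKO (adjusted p = 7.44e-08). Masp1 averaged 48.5 ± 5.92 CPM in TKO, 15.9 ± 2.69 CPM in DKO, 15.9 ± 2.41 CPM in MKO and 13.9 ± 1.84 CPM in Ctrl, with 1.60 ± 0.12 over DKO (adjusted p = 1.43e-08). For Masp1 the 3 other groups were nearly level, whereas for Gnao1 and Etv5 DKO lay between TKO and Ctrl. Ankrd1 was 1.49 ± 0.25 above DKO (adjusted p = 0.000452), Tgfb2 1.28 ± 0.14 (adjusted p = 3.77e-06) and Rcan1 1.16 ± 0.13 (adjusted p = 3.27e-06). These genes were picked for their rise in the same TKO libraries, so their ratios over DKO are not independent of that choice. Over the fetal and stress list, 11 of 29 genes were higher and none was called lower in TKO against DKO (37.9%). Of all genes 4.16% were higher and 2.22% lower in that comparison. In DKO against Ctrl 2 of the 29 were lower and none was called higher (6.9%, against 0.334% of all genes lower and 0.301% higher). Of the 48 TCA cycle genes 6 were lower in TKO against DKO (12.5%, against 2.22% of all genes lower). For these genes edgeR called none in DKO against Ctrl (11 at an unadjusted p under 0.05), where DESeq2 called 2 and voom 3, all lower.

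**Figure D4:**
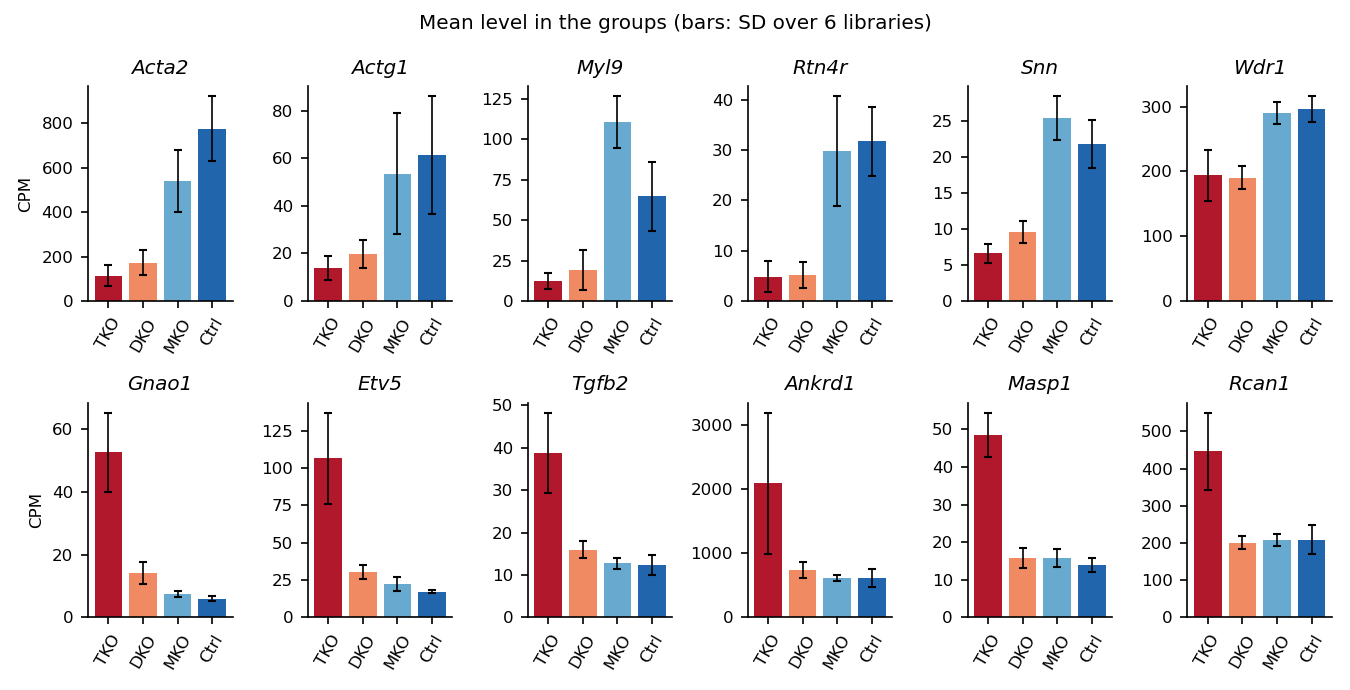
Mean level of 12 genes in TKO, DKO, MKO and Ctrl in CPM, with bars for the SD over 6 libraries; the genes were chosen after their values were seen. In the upper row (Acta2, Actg1, Myl9, Rtn4r, Snn, Wdr1) the TKO and DKO means lie below the MKO and Ctrl means, and in the lower row (Gnao1, Etv5, Tgfb2, Ankrd1, Masp1, Rcan1) the TKO mean is the highest.

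Genes beside the targeted loci were examined apart, because the TKO and DKO genotypes carry Mrtfa and Mrtfb alleles that Ctrl lacks. Within 10 Mb of Mkl1, 41 of 223 tested genes were called in TKO against Ctrl (18.4%), against 14.9% on the rest of chromosome 15. Within 10 Mb of Mkl2, 34 of 162 were called (21%), against 13.7% on the rest of chromosome 16. Within 10 Mb of Myocd, which the labels give only as a guide target, 30 of 227 were called (13.2%), against 14.1% on the rest of chromosome 11. Rtn4r, the Nogo receptor (chr16:18127706-18152408), lies 4.71 Mb from Mkl2. It spanned 1.14 to 9.48 CPM (median 3.61) in TKO and 21.3 to 39.4 CPM (median 33.1) in Ctrl, with no overlap, fell by 2.70 ± 0.37 (adjusted p = 1.62e-05), and averaged 5.17 ± 2.57 CPM in DKO and 29.8 ± 10.9 CPM in MKO. Snn, which encodes stannin (chr16:11066298-11074986), lies 2.18 Mb from Mkl2. It spanned 5.07 to 8.12 CPM (median 6.74) in TKO and 17.9 to 26.1 CPM (median 22) in Ctrl, fell by 1.72 ± 0.14 (adjusted p = 7.22e-09), and averaged 9.58 ± 1.59 CPM in DKO. Etv5 and Nlrc3 lie 8.96 and 9.28 Mb from Mkl2. The effect of chromosome segments linked to the alleles and that of the alleles themselves cannot be told apart here. With all genes within 10 Mb of the loci left out, 1604 genes were called.

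The TKO libraries varied among themselves. In a principal component analysis of the 12 libraries the first component (27.8% of the variance) separated the groups, with TKO at 11.6 to 34.1 and Ctrl at -43 to -8.1. The second (23.9%) ran from Ctrl 2 at -40.6 to Ctrl 3 at 49.8, with the TKO libraries between -32.8 and 15.7. Among the 274 genes called at least 2-fold higher, TKO 4 was the highest TKO library for 108, against 28 to 39 for each of the other 5, and TKO 5 was the lowest for 73. Among the 118 called at least 2-fold lower, TKO 4 was the lowest for 40. The median log2 ratio to the Ctrl mean over the genes that rose was still between 1.23 (TKO 5) and 1.56 (TKO 4) in every library. Clu, the secreted chaperone clusterin, shows the pattern: it spanned 562 to 2099 CPM (median 738) in TKO and 179.9 to 272 CPM (median 228) in Ctrl, with a log2 ratio of 2.05 ± 0.29 (adjusted p = 2.79e-05). TKO 4 stood far above the other 5 TKO libraries, all of which exceeded every Ctrl library. The fall of Hrasls (now Plaat1), a phospholipid-modifying enzyme (chr16:29209695-29230530), was uneven. It had 0.0871 to 0.167 CPM in TKO 2, 4, 5 and 6, 3.55 CPM in TKO 1 and 11.5 CPM in TKO 3, against 13.3 to 29.6 CPM (median 18.7) in Ctrl. Its log2 ratio was -2.79 ± 0.83 (adjusted p = 0.0236), or -4.50 without TKO 3 (adjusted p = 0.000966), and in DESeq2 the adjusted p was 0.0533.

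**Figure D5:**
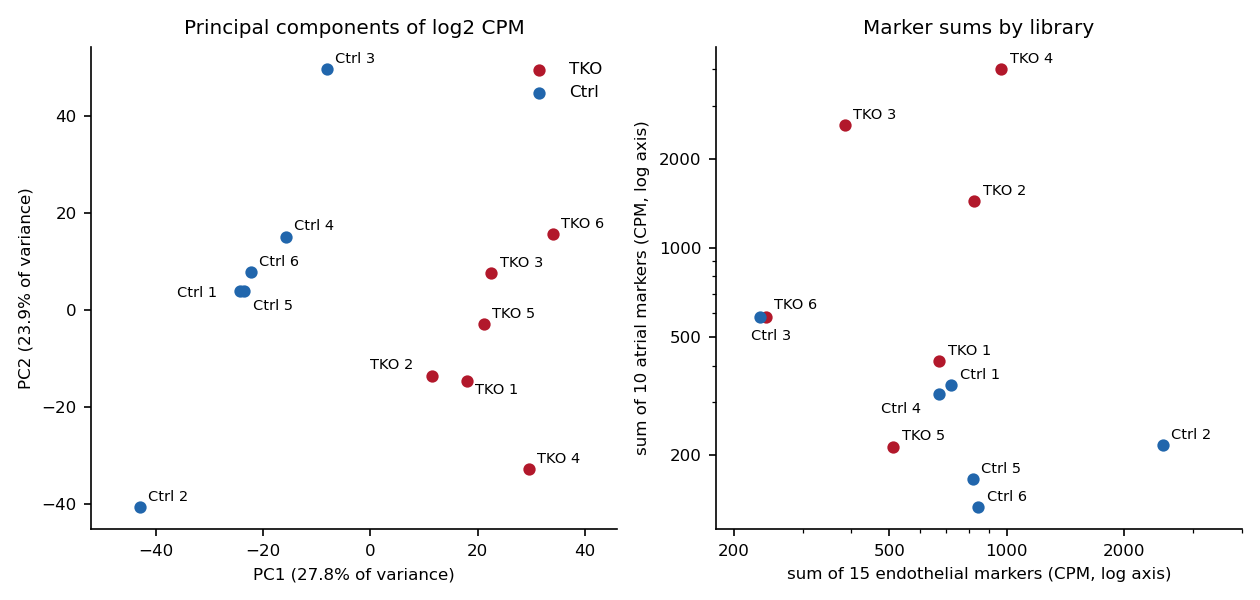
Left, the first 2 principal components of log2 CPM for the 6 TKO (red) and 6 Ctrl (blue) libraries; right, the summed CPM of 10 atrial markers against that of 15 endothelial markers in each library, both on log axes. TKO and Ctrl part along the first component, and Ctrl 2 and Ctrl 3 stand at the ends of the second. TKO 4 has the highest atrial sum (4017 CPM) and Ctrl 2 the highest endothelial sum (2505 CPM). The atrial sum includes Nppa. The other 9 atrial markers summed to 61.5 to 103 CPM in TKO, highest in TKO 5, and to 67.8 to 180 CPM in Ctrl, highest in Ctrl 3.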

How the data were processed

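Polyadenylated RNA of sorted cardiomyocytes was amplified by SMART-Seq before Nextera XT library preparation, per the labels' protocols. These kits are unstranded, so reads of overlapping or antisense genes are mixed. The authors deposited whole-number read counts per gene, with a gene length beside them. The submitters' processing notes name STAR, featureCounts, DESeq2 and mm10, without versions. The sources used here do not give the handling of multiply mapped reads. The authors also deposited a table of TKO against Ctrl with a log2 fold change, its standard error, a mean level and a test statistic (a score each) and p-values, per the file headers. A DESeq2 refit without Ctrl 3 matched its log2 values within 0.001 for 100% of 17471 genes.

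The two-sided quasi-likelihood test of edgeR 4.0.16 (R 4.3.3) was run on the counts with TMM scaling, in a single fit of the 4 groups and their 24 libraries. The default filterByExpr filter (minimum count 10) left 12281 genes, over which p-values were adjusted by Benjamini-Hochberg; a gene was called under 0.05. Adjusted p-values are from edgeR where no other tool is given. Levels are CPM on the scaled library size, given as the range with the median, or as the mean ± SD over 6 libraries. Totals of 8.02 to 17.2 M counts per TKO or Ctrl library limit precision for genes near 1 CPM. Pairs of libraries within a group were compared by chi-square per gene, and none was a repeat.

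Named genes are the targeted genes and Srf, and called genes that reach 10 CPM in the higher group and have 5 or 6 of the 6 libraries of each group past the mean of the other: the 15 largest rises and 15 largest falls, the 10 smallest adjusted p-values and the 6 largest CPM changes each way. Up to 4 called members of each gene list were added. Not all are printed. Adam12, Trim35, Myh11, Cd3e and the globin genes were added after their values were seen. The members, lists and rules were chosen with earlier results of these data known. No set test was run. The lists have 1361 entries, and 1342 were found in the table. The fit was tested on simulated counts. Alternatives were other scalings, filters and tests (DESeq2 1.42.0, and voom with quality weights of limma 3.58.1), the 2 groups alone, 22 libraries without Ctrl 3 and DKO 1, terms for sex or replicate number, each library left out, and genes near the targeted loci left out. DKO and MKO against Ctrl were also run with the other tools and without Ctrl 3, and the DKO comparisons without DKO 1, after the data were seen. Promoter sequences are those of RefSeq, and coordinates are in mm10.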

Additional observations from a re-analysis of the deposited data

Results flagged for a closer look

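Over the 110 genes named and both groups, 220 sets of 6 libraries were examined for a single library far from the other 5. Such a library was found in 21 of them. For each, the gap to the nearest of the other libraries was large beside the whole range of the group. Chance would give about 1 in 20 if the values were independent and normally distributed. CPM of genes in the same libraries need not be, so the number found is not compared with chance.

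In TKO 4, Clu had 2099 CPM (562 to 833 CPM in the other TKO libraries), Myh7 2059 CPM (227 to 512), Gpx3 819 CPM (104 to 358), Sorbs3 109 CPM (22.5 to 43.6) and Fgfr1 51.2 CPM (22.5 to 26.5), all as the highest library. Dusp8 was lowest there, with 56.2 CPM (83.8 to 99.4). In TKO 1, Tnni1 had 601 CPM (73.1 to 202 CPM in the other TKO libraries), Kcne1 275 CPM (126 to 179) and Inhba 10.6 CPM (5.49 to 6.84), as the highest library. In TKO 3, Gdf15 had 11.1 CPM (0.867 to 4.6 CPM in the other TKO libraries) and Hrasls 11.5 CPM (0.0871 to 3.55).

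In Ctrl 2, Cnn2 had 56.4 CPM (19.7 to 32.5 CPM in the other Ctrl libraries), Tuba1a 54.3 CPM (19 to 28), Apln 48.4 CPM (16.6 to 20.4), Sorbs3 40.2 CPM (5.47 to 14.1), Spry4 22.3 CPM (6.34 to 11.8), Asns 15.8 CPM (7.76 to 9.95) and Nlrc3 3.78 CPM (0.739 to 1.23), as the highest library. In Ctrl 3, Ckb had 236 CPM (139 to 175 CPM in the other Ctrl libraries) and Mybpc2 87.2 CPM (35.4 to 53.9) as the highest library, and Rgs2 had 94.6 CPM (127 to 143) as the lowest. Ctrl 2 also had the highest endothelial sum and Ctrl 3 the highest atrial sum of the Ctrl libraries; their part in these values was not tested.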

How the results depend on the processing

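No named gene reversed under any of the 23 alternatives that could fit it. Of 109 called genes 93 were fitted in each and kept the call, and 10 kept it where fitted but were filtered out of at least 1. Myocd, Elk4, Tnni1, Myh7, Hrasls and Adam12 lost it in at least 1. In TKO against Ctrl, 22 libraries gave 2627 calls, 1269 lower, 237 of them at least 2-fold, and voom 2644 calls, 1219 lower. A 1.5-fold limit gave 562 genes higher and 325 lower. TKO against DKO gave 1239 calls (803 higher, 436 lower) with 22 libraries, 269 (216 higher, 53 lower) with only the 2 groups, 1233 (480 lower) with a sex term and 1561 (857 higher, 704 lower) with voom; the number lower was 445 with DESeq2 and 171 with no filter. TKO against MKO gave 2892 calls (1487 higher, 1405 lower) with 22 libraries, 2581 (1404 lower) with only the 2 groups and 3202 (1505 higher, 1697 lower) with voom. Leaving out single TKO or Ctrl libraries gave 495 to 854 calls in TKO against DKO, 128 to 323 of them lower, 1403 to 1787 in TKO against Ctrl and 1261 to 1896 in TKO against MKO. In alternatives added after the data were seen, DKO against Ctrl gave 162 calls (67 higher, 95 lower) with DESeq2, 313 (116 higher, 197 lower) with voom, and 65 to 124 (29 to 43 higher, 36 to 81 lower) without Ctrl 3 or DKO 1; MKO against Ctrl gave 1 with DESeq2 and 3 with voom, all lower. TKO against DKO without DKO 1 gave 1100 (748 higher, 352 lower). The causes were not tested. Among lists with at least 5 calls, the TCA cycle list had 37 lower with voom, the respiratory chain 23 with only the 2 groups and 26 with voom, mitochondrial biogenesis 16 with 22 libraries and 22 with voom, and fatty acid genes 18, 16 and 20 with 22 libraries, the 2 groups and voom. Intercalated disc genes had 9 higher with 22 libraries, and matrix genes 3 with the 2 groups. With no filter calcium cycling and calcineurin genes had 3 lower each, glucose genes 3 without genes near the loci, and proteasome and autophagy genes 8 with voom.

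Replicate numbers gave no clear pairing of the libraries. The deviations of same-numbered TKO and Ctrl libraries correlated between -0.01 (number 5) and 0.31 (number 2) over genes. Of 6 TKO libraries, 2 correlated best with the Ctrl library of their own number. This check does not exclude a pairing. With the replicate number as a block 1792 genes were called in TKO against Ctrl, 908 in TKO against DKO and 1834 in TKO against MKO.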
